A study of Mus musculus with 22 samples.

Results

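The genes that build the major histocompatibility complex (MHC) molecules were followed in mouse lumbar spinal cord after joint injury, with the class I pathway set beside the class II pathway. The members were the genes whose symbol in the deposited table equals H2-D1, H2-K1, B2m, Tap1, Tap2, Tapbp, H2-Aa, H2-Ab1, H2-Eb1 or Cd74. All 10 were found among the 17306 genes of the table, and all 10 passed the filter on low values that 16765 genes passed. They fall into 3 class I members, 3 peptide loading members and 4 class II members. RNA sequencing covered 22 wildtype C57BL6J mice aged 12 to 14 weeks at collection, all of which had received sodium iodoacetate (MIA, 1 mg) in the knee, an injury model of osteoarthritis pain, and all of which were collected on day 30. SAFit2, an inhibitor of the stress-response regulator FKBP51, was given at 100 mg/kg in a vesicular phospholipid gel (VPG), and Vehicle mice received the gel alone. Early mice were injected on days -3 and 4 around the MIA injection by the series description, although the sample labels write day 3 in place of day -3, and Late mice were injected on days 20 and 27. The groups held 6 Early Vehicle, 5 Early SAFit2, 6 Late Vehicle and 5 Late SAFit2 mice. No uninjured mouse is among them, so every difference below is between injured mice. The labels also give Early and Late as batches, so the timing of treatment and the batch cannot be told apart. The sample titles of the Early SAFit2 mice read SAFit1 where their treatment label reads SAFit2, and the treatment label was used.

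MHC class I molecules sit on nearly all nucleated cells and display peptides made from the cell's own proteins. A polymorphic heavy chain, here from H2-D1 or H2-K1, folds around the invariant light chain beta-2 microglobulin (B2m). Peptides cut by the proteasome are pumped into the endoplasmic reticulum by the transporter formed from Tap1 and Tap2, and tapasin (Tapbp) holds the empty class I molecule beside that transporter while it is loaded. MHC class II molecules are restricted to antigen-presenting cells and show peptides taken up from outside. H2-Aa and H2-Ab1 encode the alpha and beta chains of the I-A molecule, H2-Eb1 encodes the beta chain of the I-E molecule, and Cd74 is the invariant chain that guards the groove until the molecule reaches the endosome. In the resting central nervous system, microglia carry little class II, while macrophages and dendritic cells of the meninges and perivascular spaces carry more. Mice of the C57BL6 background make no I-E alpha chain, so H2-Eb1 was read as a transcript only.

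The promoters below are shown because B2m was the member called after late treatment, H2-D1 and H2-K1 encode the heavy chains it pairs with, and H2-Aa and H2-Eb1 stand for the class II genes, whose levels went together from mouse to mouse. Each is 300 bases long, from 250 bases before the annotated first base of the RefSeq gene, counted as 0, to the end of its first 50 bases, written 5′ to 3′ on the gene's own strand (RefSeq, GRCm38.p6). Capitals mark CCAAT on either strand, which reads ATTGG when it lies on the opposite strand, and, in B2m, GAAA followed by any 2 bases and GAAA again, a core of the interferon-stimulated response element (ISRE). The windows are chr2:122147437-122147736 for B2m (plus strand), chr17:35262844-35263143 for H2-D1 (plus strand), chr17:34000298-34000597 for H2-K1 (minus strand), chr17:34287774-34288073 for H2-Aa (minus strand) and chr17:34305617-34305916 for H2-Eb1 (plus strand).
B2m: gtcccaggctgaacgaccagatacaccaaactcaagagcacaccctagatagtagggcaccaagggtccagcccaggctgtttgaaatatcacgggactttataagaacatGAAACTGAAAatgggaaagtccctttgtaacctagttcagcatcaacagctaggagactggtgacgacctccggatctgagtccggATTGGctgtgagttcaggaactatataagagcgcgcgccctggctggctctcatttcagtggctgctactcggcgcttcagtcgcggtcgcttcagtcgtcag
H2-D1: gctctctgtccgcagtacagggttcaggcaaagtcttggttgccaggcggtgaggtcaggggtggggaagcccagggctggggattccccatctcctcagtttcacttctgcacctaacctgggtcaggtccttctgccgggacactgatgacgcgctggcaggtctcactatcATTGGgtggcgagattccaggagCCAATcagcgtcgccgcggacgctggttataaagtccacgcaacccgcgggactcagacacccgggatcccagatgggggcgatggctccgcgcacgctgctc
H2-K1: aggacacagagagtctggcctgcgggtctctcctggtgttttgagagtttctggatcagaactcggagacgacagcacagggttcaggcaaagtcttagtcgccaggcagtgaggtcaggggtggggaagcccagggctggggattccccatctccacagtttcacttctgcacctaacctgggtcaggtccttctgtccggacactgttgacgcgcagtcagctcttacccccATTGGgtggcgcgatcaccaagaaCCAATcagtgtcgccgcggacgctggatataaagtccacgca
H2-Aa: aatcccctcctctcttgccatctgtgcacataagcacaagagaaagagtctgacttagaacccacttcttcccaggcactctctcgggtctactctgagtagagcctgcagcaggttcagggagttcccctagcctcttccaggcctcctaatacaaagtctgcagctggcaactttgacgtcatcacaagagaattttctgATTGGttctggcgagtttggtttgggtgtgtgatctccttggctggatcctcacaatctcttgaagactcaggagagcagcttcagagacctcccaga
H2-Eb1: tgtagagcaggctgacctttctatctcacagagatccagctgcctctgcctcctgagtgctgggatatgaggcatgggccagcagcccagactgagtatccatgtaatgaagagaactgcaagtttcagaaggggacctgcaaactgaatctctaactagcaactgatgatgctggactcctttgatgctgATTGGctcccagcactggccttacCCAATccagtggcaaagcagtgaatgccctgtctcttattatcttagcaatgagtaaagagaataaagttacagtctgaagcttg

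Promoters of 7 members matched by symbol, those of Tap1 and Tapbp beside the 5 printed. CCAAT on either strand was found in 7 of 7 of them, and in 37.9% of 27025 RefSeq promoters of the same length. In H2-D1 it began at positions -76 and -53, in H2-K1 at -16 and 8, in B2m at -53, in H2-Aa at -48 and in H2-Eb1 at -59 and -35. The ISRE core as defined above, on either strand, was found in B2m alone, from position -139 to -130, and in 3.49% of all promoters. Other forms of interferon response element were not searched for. The absence of this core from the heavy chain promoters therefore does not show that they lack such an element. The palindromic gamma-activated site TTCNNNGAA was found in 0 of the 7 promoters and in 8.47% of all promoters. The matches did not overlap each other in these members, the motifs were chosen after the expression values were known, and a match describes letters and not a bound site.

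Depth was between 11352989 and 24433349 reads on genes per library. Neuron, astrocyte and oligodendrocyte markers and all 8 Hox genes of the lumbar cord list were present in every group, with summed Hox levels from 256.9 to 374.2 CPM (read counts scaled to a common library total). Early Vehicle mice 4 and 5 stood apart with oligodendrocyte marker sums of 30570 and 32070 CPM, where the other 20 mice lay between 14560 and 23250 CPM. Late SAFit2 mouse 2 had the lowest sum of meningeal fibroblast markers, 61.7 CPM, and Late SAFit2 mouse 5 the highest, 667 CPM. The slope of log2 CPM on the GC content of transcripts, a measure of library composition, also differed between the late groups. Its median was 0.300 log2 per 10 percentage points of GC in Late Vehicle and -0.330 in Late SAFit2, beside 0.00700 in Early Vehicle and 0.0727 in Early SAFit2. Late Vehicle mice 2 and 6 had slopes of -0.163 and -0.321, inside the range of the Late SAFit2 mice (-0.475 to -0.0531), whereas the other 4 Late Vehicle mice lay between 0.255 and 0.490.

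All class I and peptide loading genes except B2m, and all class II genes except Cd74, lie on chromosome 17 (GRCm38, GENCODE M21), within the MHC. H2-K1 spans positions 33996017 to 34000347, Tap1 34187553 to 34197225, Tap2 34203527 to 34216321, H2-Ab1 34257689 to 34269419, H2-Aa 34282744 to 34287823, H2-Eb1 34305867 to 34316674 and H2-D1 35262730 to 35267499, with Tapbp at 33915899 to 33929292. B2m lies on chromosome 2, positions 122147686 to 122153083.

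Levels per length, on the scale of log2 CPM per kb of the longest annotated transcript, put B2m first with a mean of 7.08 ± 0.47 (SD over 22 mice). The heavy chains followed with 4.81 ± 0.41 for H2-D1 and 4.31 ± 0.36 for H2-K1, and Tapbp stood at 3.70 ± 0.26. Of the class II pathway, Cd74 was highest at 2.75 ± 1.23, then H2-Eb1 at 1.80 ± 0.90, H2-Ab1 at 1.44 ± 1.00 and H2-Aa at 0.79 ± 0.90. Of the transporter genes, Tap2 stood at 1.76 ± 0.38, between H2-Eb1 and H2-Ab1, and Tap1 was last at 0.06 ± 0.53. From Tapbp down to Tap1, neighbours in this order differed by less than the larger of their SDs, while the gaps from B2m to H2-D1, from H2-D1 to H2-K1 and from H2-K1 to Tapbp were larger than either SD. The order depends on the transcript lengths used. Not scaled by length, H2-Aa (3223 bases) had a mean of 2.51 log2 CPM and H2-Ab1 (1212 bases) one of 1.77, the reverse of their order above. The unscaled levels of the 3 class I members summed to between 148 and 296.6 CPM per mouse and those of the 4 class II members to between 3.70 and 78.7 CPM. Reads of H2-D1 carry some uncertainty because 6.90% of its 75-base windows, the length of 1 read, also occur in other genes such as H2-Q1 and H2-T23, against 1.33% for H2-K1, 0.991% for Tapbp and 0% for the other 7 members. In whole tissue, fewer cells of a type and less RNA per cell cannot be told apart in any of these levels.

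**Figure D1:**
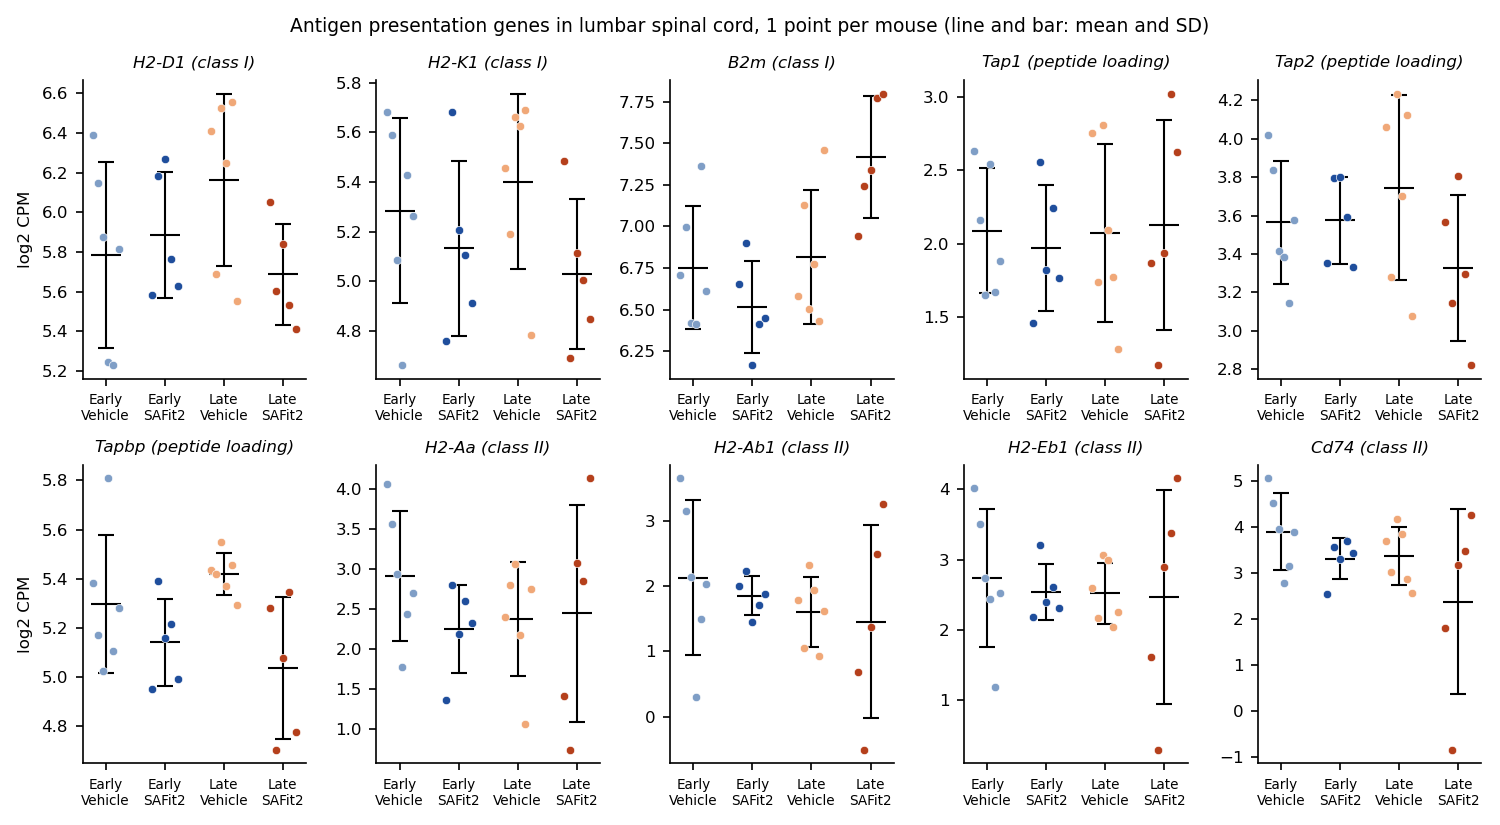
Level of each of the 10 genes in log2 CPM (vertical axes, which differ in range and do not start at 0) by group (horizontal axes), 1 point per mouse, with the mean and SD of each group. B2m stands highest in Late SAFit2, where the 5 mice lie between 6.94 and 7.80, while the 4 class II genes spread most in that same group, Cd74 from -0.85 to 4.26.

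Late treatment raised B2m, the class I light chain, and raised or lowered no other member by the main test. In 5 Late SAFit2 mice, B2m stood at 6.94, 7.24, 7.34, 7.77 and 7.80 log2 CPM. In 6 Late Vehicle mice it ranged from 6.43 to 7.46 with a median of 6.68. All 5 SAFit2 mice were above the Late Vehicle mean of 6.81, and the groups overlapped, because Late Vehicle mice 2 and 6 reached 7.13 and 7.46. The log2 fold change was 0.61 ± 0.19 (SE; limma adjusted p = 0.0450; exact permutation p = 0.0368, two-sided), a 1.52-fold higher level. Called means an adjusted p under 0.05 over all genes tested and a change of at least 1.2-fold. By that rule 1 of 10 members was called, where 12.1% of 16765 genes were called (894 higher and 1127 lower, or 1139 higher and 924 lower when libraries were centred on their medians). The B2m call was lost in 12 of 22 fits that left out 1 mouse, with adjusted p between 0.00669 and 0.122 (lost without Early Vehicle 2 or 6, Early SAFit2 4 or 5, Late Vehicle 1, 3, 4 or 5, or Late SAFit2 2, 3, 4 or 5). With the trend on GC content and length taken out of each library, its log2 fold change was 0.23 (adjusted p = 0.328), and no gene at all was then called in this comparison, though 16213 were tested. The 15 microglial markers, whose sum went with B2m over 22 mice, had a median sum of 529 CPM in Late SAFit2 and 503 CPM in Late Vehicle. Taken singly, 6 of the 15 were higher and 9 lower, with a median log2 fold change of -0.11, so the sum does not stand for all of them. Their part in the B2m difference was not tested.

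The heavy chains leaned the other way. H2-D1 stood at 6.05, 5.60, 5.84, 5.53 and 5.41 log2 CPM in Late SAFit2 mice, and from 5.55 to 6.56 with a median of 6.33 in Late Vehicle mice. None of the SAFit2 mice reached the Late Vehicle mean of 6.16, yet the ranges overlapped, since Late Vehicle mice 2 and 6 were again on the SAFit2 side at 5.69 and 5.55. Its log2 fold change of -0.48 ± 0.21 had an unadjusted limma p of 0.0304 and did not pass the adjusted threshold (adjusted p = 0.107; exact permutation p = 0.0649). H2-K1 stood at 5.49, 4.69, 5.11, 5.01 and 4.85 log2 CPM in Late SAFit2 mice and from 4.78 to 5.69 with a median of 5.54 in Late Vehicle mice. Of the 5 SAFit2 mice 4 lay inside the Late Vehicle range. Its log2 fold change was -0.37 ± 0.19 (adjusted p = 0.167; exact permutation p = 0.0974). With the GC and length trend removed, the values were -0.12 for H2-D1 and -0.10 for H2-K1.

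Of the peptide loading genes, Tapbp came nearest to the threshold after late treatment. Its levels were 5.28, 4.70, 5.08, 5.35 and 4.78 log2 CPM in Late SAFit2 mice, beside a narrow 5.29 to 5.55 in Late Vehicle mice. The 5 SAFit2 mice were below the Late Vehicle mean of 5.42, and 1 of them lay above the lowest Vehicle mouse. The log2 fold change was -0.38 ± 0.14 (adjusted p = 0.0574; exact permutation p = 0.00433, where 0.0022 is the smallest p that 5 against 6 mice can give). Tap2 stood at 3.57, 3.14, 3.80, 3.30 and 2.82 log2 CPM in Late SAFit2 mice and from 3.08 to 4.24 in Late Vehicle mice. The fitted difference was -0.42 ± 0.21 on the log2 scale (adjusted p = 0.165). Tap1, its partner in the transporter, spread from 1.17 to 3.02 log2 CPM in Late SAFit2 and from 1.28 to 2.81 in Late Vehicle, and its log2 fold change was 0.05 ± 0.32 (adjusted p = 0.922). With the GC and length trend removed, Tapbp was at 0.07, Tap2 at 0.04 and Tap1 at 0.46, so the sign of Tapbp and of Tap2 turned.

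At an unadjusted limma p under 0.05, 3 of 10 members passed in the late comparison (B2m higher, H2-D1 and Tapbp lower), against 34.5% of all genes. The median log2 fold change was -0.37 over the class I members, -0.38 over the peptide loading members and -0.10 over the class II members, beside -0.05 over all genes tested.

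No class II gene passed the test between the late groups, and their spread was large. Cd74 stood at 1.80, -0.85, 3.19, 3.49 and 4.26 log2 CPM in Late SAFit2 mice and from 2.57 to 4.19 with a median of 3.36 in Late Vehicle mice. The SAFit2 values bracketed the Vehicle values on both sides. Its log2 fold change was -0.99 ± 0.58 (95% confidence interval -2.17 to 0.19; adjusted p = 0.222; exact permutation p = 0.305), and it was -0.18 without Late SAFit2 mouse 2, whose Cd74 value rested on 6 reads. H2-Aa, the I-A alpha chain, stood at 1.41, 0.74, 3.08, 2.85 and 4.14 log2 CPM in Late SAFit2 mice against 1.06 to 3.07 in Late Vehicle mice. H2-Ab1, the I-A beta chain, stood at 0.69, -0.51, 1.37, 2.49 and 3.25 log2 CPM against 0.94 to 2.33. H2-Eb1 stood at 1.61, 0.29, 2.90, 3.38 and 4.16 log2 CPM against 2.04 to 3.06. In all 4 genes mouse 2 was the lowest and mouse 5 the highest of the Late SAFit2 group. The log2 fold changes were 0.07 ± 0.47 for H2-Aa (95% confidence interval -0.91 to 1.04), -0.15 ± 0.53 for H2-Ab1 (-1.23 to 0.93) and -0.05 ± 0.49 for H2-Eb1 (-1.06 to 0.96), so differences of about the size of the B2m change lay inside every one of these intervals.

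**Figure D2:**
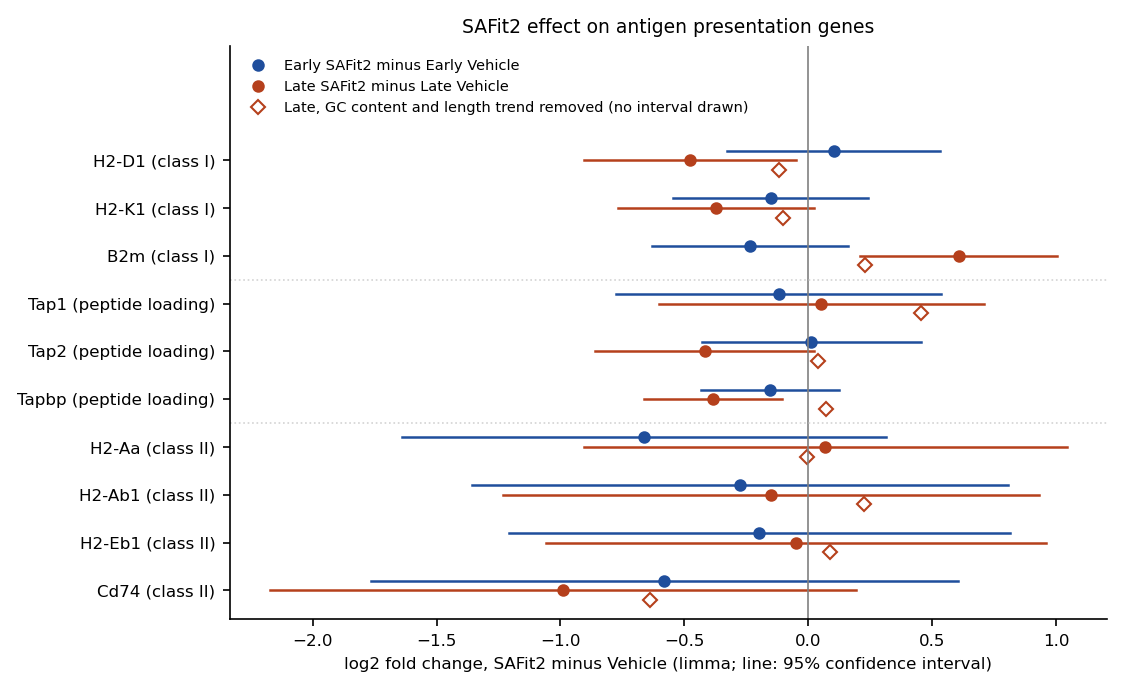
Log2 fold change of SAFit2 minus Vehicle (horizontal axis) for each gene (vertical axis), with 95% confidence intervals for the early (blue) and late (red) comparison, and, as open diamonds, the late values after each library's trend on GC content and length was removed. The late intervals of B2m, H2-D1 and Tapbp leave out 0, and those of the 4 class II genes are the widest. The diamonds of H2-D1, H2-K1, Tap2, Tapbp, B2m, H2-Aa and Cd74 lie nearer to 0 than the late filled points. Those of Tap1, H2-Ab1 and H2-Eb1 lie further from 0.

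Early treatment, tested at the same day 30, left no member past any threshold. No member was called and none had an unadjusted limma p under 0.05, where 0% of 16765 genes were called and 2.48% had such a p (lowest adjusted p over all genes 0.665). The values of 8 of 10 members were lower in Early SAFit2, with a median log2 fold change of -0.18 beside 0.01 over all genes tested. Of all members H2-Aa and Cd74 lay furthest from 0. H2-Aa stood at 1.35, 2.80, 2.18, 2.60 and 2.33 log2 CPM in Early SAFit2 mice and from 1.77 to 4.07 with a median of 2.82 in Early Vehicle mice, and the fitted log2 fold change was -0.66 ± 0.47 (exact permutation p = 0.162). Cd74 stood at 2.55, 3.57, 3.32, 3.71 and 3.44 log2 CPM in Early SAFit2 mice and from 2.79 to 5.07 with a median of 3.93 in Early Vehicle mice, and the fitted log2 fold change was -0.58 ± 0.58 (exact permutation p = 0.199). In both genes 0 of the 5 SAFit2 mice exceeded the Vehicle mean, and the ranges overlapped. H2-Ab1 and H2-Eb1 gave -0.28 ± 0.53 and -0.20 ± 0.49, and both turned to 0.03 and 0.06 without Early Vehicle mouse 1, which had the highest level of all 4 class II genes in its group. Without that mouse H2-Aa and Cd74 shrank to -0.43 and -0.35.

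B2m in Early SAFit2 mice stood at 6.65, 6.90, 6.17, 6.41 and 6.45 log2 CPM, against 6.41 to 7.36 with a median of 6.66 in Early Vehicle mice. Its early log2 fold change was -0.24 ± 0.19 (exact permutation p = 0.266), of opposite sign to the late value. H2-D1 gave 0.10 ± 0.21, H2-K1 -0.15 ± 0.19, Tap1 -0.12 ± 0.32, Tap2 0.01 ± 0.21 and Tapbp -0.15 ± 0.14 on the same scale, and every interval included 0.

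The difference between the late and the early effect was tested in its own right. For B2m it was 0.84 ± 0.27 on the log2 scale, with an exact permutation p of 0.0155 with treatment exchanged within each timing, while the limma p adjusted over all genes was 0.120. For H2-D1 the difference was -0.58 ± 0.29 (adjusted p = 0.219; exact permutation p = 0.101). In this comparison 0% of genes were called at an adjusted p under 0.05, and 24.9% had an unadjusted p under 0.05, as had 1 of 10 members. The remaining differences ran from -0.43 for Tap2 to 0.73 for H2-Aa, each with a 95% confidence interval that included 0.

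For the mean of the early and late effects, calls were made at an unadjusted p under 0.05, which 13.2% of genes passed (1011 higher and 1204 lower, or 1247 higher and 1025 lower with libraries centred on their medians). Tapbp was the member that passed, with a mean log2 fold change of -0.27 ± 0.10 (limma p = 0.00934; adjusted p = 0.325; exact permutation p = 0.0100). With 1 of 5 Early SAFit2 and 0 of 5 Late SAFit2 mice above their Vehicle means, it leaned the same way in both timings. The early lean was small, at -0.052, without Early Vehicle mouse 4, whose 5.81 log2 CPM was the highest of its group. The mean effect on Tapbp was -0.07 once the GC and length trend was removed. H2-K1 (-0.26 ± 0.14, exact permutation p = 0.0913) and Cd74 (-0.79 ± 0.41, exact permutation p = 0.0989) came next and did not pass.

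Between the Vehicle groups, no member was called and none had an unadjusted p under 0.05, where 9.11% of genes were called (552 higher and 975 lower in Late Vehicle, or 1198 higher and 816 lower with libraries centred on their medians). H2-D1 was at 5.78 ± 0.47 (SD, n = 6) in Early Vehicle and 6.16 ± 0.44 (SD, n = 6) in Late Vehicle, a difference of 0.38 ± 0.20 (SE; adjusted p = 0.246). The 4 class II genes had lower values in Late Vehicle, by -0.54 for H2-Aa, -0.52 for H2-Ab1, -0.22 for H2-Eb1 and -0.53 for Cd74, with standard errors between 0.45 and 0.55.

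The class II genes were among the most variable of their level, and they varied together. With group means taken away, the SD of Cd74 over mice was 1.12 log2, larger than in all but 0.494% of the 2023 genes within 0.5 log2 CPM of its mean. The SD was 0.99 for H2-Ab1, 0.94 for H2-Eb1 and 0.90 for H2-Aa, with 1.46%, 1.01% and 1.27% of genes of like level more variable. Counting error alone would give an SD of 0.165 to 0.225 at these read numbers. The class I members also varied more than most genes of like level, on a smaller scale. Their SDs were 0.39 for H2-D1, 0.36 for B2m and 0.35 for H2-K1, where genes of like level had medians of 0.21 to 0.23 and 4.98%, 7.49% and 12.3% of them were more variable. The SDs of the loading genes were 0.55 for Tap1, 0.37 for Tap2 and 0.22 for Tapbp, with 24.8%, 31.2% and 56.3% of genes of like level more variable. Among the 6 class II pairs Pearson's r over 22 mice ran from 0.788 to 0.862, and 6 of 6 passed an adjusted permutation p of 0.05 over the 45 member pairs. H2-Ab1 with Cd74 gave r = 0.854 (rho = 0.829, permutation p = 1e-05, the smallest the resamples can give; adjusted p = 9e-05), 0.829 in the 11 early and 0.888 in the 11 late mice, and 0.775 without the 2 mice farthest from the median. H2-Aa with H2-Ab1, both chains of I-A, gave r = 0.831 (rho = 0.718, permutation p = 1e-05, adjusted p = 9e-05), 0.810 early, 0.851 late and 0.769 without the 2 farthest mice. After the GC and length trend was removed, the 6 class II pairs lay between 0.824 and 0.847.

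Over 22 mice the 12 pairs of a class I with a class II member had r between -0.17 and 0.47, with 0 of 12 past the adjusted threshold. The values differed between the batches and between the class I members. Within the 11 early mice H2-D1 gave 0.663 with H2-Aa, 0.720 with H2-Ab1 and 0.793 with H2-Eb1, and within the 11 late mice -0.340, -0.0588 and -0.0463. H2-K1 with the 4 class II genes ranged from 0.507 to 0.810 in the early and from -0.215 to 0.428 in the late mice. B2m ranged from -0.114 (H2-Eb1) to 0.314 (H2-Ab1) in the early and from -0.0760 to 0.477 in the late mice, so its early values were low beside those of the heavy chains. Neither the difference between early and late values nor that between B2m and the heavy chains was tested. H2-D1 with Cd74 gave r = 0.322 (rho = 0.365, permutation p = 0.14, adjusted p = 0.25), 0.706 in the early and 0.269 in the late mice, and 0.342 without the 2 farthest mice. Tap1 went with class II, with r = 0.717 to H2-Eb1 (rho = 0.766, permutation adjusted p = 0.00072, 0.715 without the 2 farthest mice, 0.665 early and 0.758 late) and r = 0.597 to Cd74 (rho = 0.612, permutation adjusted p = 0.0062, 0.627 without them, 0.425 early and 0.730 late). Tap1 with H2-D1 gave r = 0.266 (rho = 0.299, permutation p = 0.23, adjusted p = 0.33), 0.344 early, 0.216 late and 0.244 without the 2 farthest mice.

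Within class I, the heavy chains went together, and the r of the light chain with them took different values in the early and late mice. H2-D1 with H2-K1 gave r = 0.792 (rho = 0.800, permutation p = 4e-05, adjusted p = 0.00022), 0.655 early, 0.923 late and 0.742 without the 2 farthest mice. H2-D1 with Tap2 gave r = 0.900 (rho = 0.893, permutation p = 1e-05, adjusted p = 9e-05, 0.864 without the 2 farthest mice), 0.924 early and 0.942 late. B2m with H2-D1 gave r = -0.485 (rho = -0.442, permutation p = 0.022, adjusted p = 0.055). That last relation was -0.956 in the late and -0.169 in the early mice, and it was -0.415 without the 2 farthest mice. B2m with H2-K1 gave r = -0.236 (rho = -0.126, permutation p = 0.29, adjusted p = 0.38, -0.305 without the 2 farthest mice), with 0.565 in the early and -0.857 in the late mice. For both pairs the early and late values keep the treatment groups together, and the difference between early and late was not tested. With the GC and length trend removed, B2m with H2-D1 gave 0.322 (permutation p = 0.14), B2m with H2-K1 0.386, H2-D1 with H2-K1 0.618 and H2-D1 with Tap2 0.638.

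**Figure D3:**
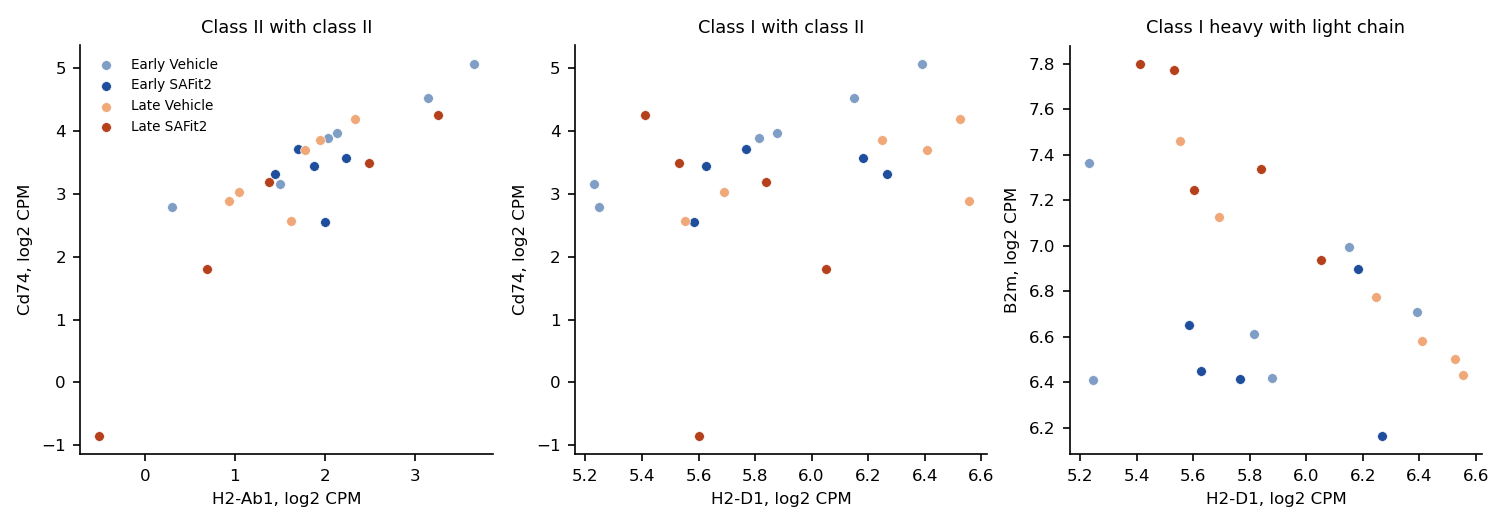
Each panel sets the log2 CPM of a gene (horizontal axis) against that of another (vertical axis), with 1 point per mouse coloured by group. H2-Ab1 and Cd74 rise together (r = 0.854 over 22 mice), and H2-D1 and Cd74 are less closely related (r = 0.322 over all mice and 0.706 in the early mice). H2-D1 and B2m run opposite ways in the late mice (r = -0.956) and less so in the early mice (r = -0.169), a difference that was not tested.

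Library composition moved with the class I genes. The GC slope comes from the same log2 CPM over the genes, so genes of high GC content tend to rise with it. Those of low GC content tend to fall. The permutation p-values below therefore do not set the members apart from other genes of like GC content. Over 22 mice the GC slope of the library correlated with H2-D1 (r = 0.850, rho = 0.864, permutation p = 1e-05, adjusted over 10 relations p = 5e-05), giving 0.840 in the early mice, 0.978 in the late mice and 0.834 without the 2 mice farthest from the median slope. For Tap2 the r was 0.876 (rho = 0.868, permutation adjusted p = 5e-05, 0.874 without those 2 mice, 0.890 early and 0.887 late) and for H2-K1 0.726 (rho = 0.739, permutation adjusted p = 0.00045, 0.713 without them, 0.514 early and 0.900 late). For B2m it was -0.762 (rho = -0.687, permutation p = 6e-05, adjusted p = 0.0002), with -0.333 early, -0.959 late and -0.719 without the 2 mice. The 4 class II genes gave r between -0.02 and 0.40, and 0 of 4 passed the adjusted threshold. Within the early mice alone they gave 0.772 (H2-Eb1), 0.576 (Cd74), 0.547 (H2-Aa) and 0.409 (H2-Ab1), values like that of H2-K1, and within the late mice they gave between -0.252 and 0.325. The transcript of B2m has a GC content of 41.2%, the lowest of the 10, and those of H2-D1, H2-K1, Tap2 and Tapbp lie between 54.3% and 57.1%. Late Vehicle mice 2 and 6, whose slopes were those of the SAFit2 group, were also the mice whose B2m and H2-D1 levels lay among the SAFit2 values. The part of library composition in the late differences was not tested apart from treatment. The slope differed between the late groups, with medians of 0.300 in Late Vehicle and -0.330 in Late SAFit2. Taking the GC and length trend out of each library therefore also takes out any SAFit2 difference that ran along GC content. The correction given above cannot divide the late differences between treatment and composition, and it did not take away every relation to the slope. On the corrected values the r with the slope was 0.494 for H2-D1, 0.404 for H2-K1, 0.251 for Tap2 and -0.412 for B2m, and for Tapbp it went from 0.537 to -0.498.

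Markers of other cell types moved with the class II genes. In Late SAFit2 mice 1 to 5 the 4 class II members summed to 10.4, 3.70, 27.2, 34.0 and 63.8 CPM. In the same mice the 8 meningeal fibroblast markers summed to 112.5, 61.7, 323, 348 and 667 CPM, and the 8 markers of border macrophages, which line the meninges and vessels, to 8.53, 1.92, 11.8, 15.0 and 25.6 CPM. All 3 sums thus had the same order of mice. The fibroblast list (8 of 8 genes in the table, Slc47a1 at 0 reads in some mice) ranged from 240.9 to 592.8 CPM in Early Vehicle, from 231.0 to 372.3 in Early SAFit2 and from 170.1 to 273.5 in Late Vehicle. The border macrophage list ranged from 10.4 to 27.5, from 10.5 to 15.4 and from 7.47 to 15.6 CPM in those groups, with Lyve1, Pf4, Ms4a7, Cbr2 and Clec12a at 0 reads in some mice. Cd74 correlated with the log2 fibroblast sum at r = 0.908 (rho = 0.845, permutation p = 1e-05, adjusted over 60 relations p = 8.6e-05), 0.911 early, 0.895 late and 0.866 without the 2 mice farthest from the median sum. H2-Ab1 gave r = 0.891 (rho = 0.818, permutation adjusted p = 8.6e-05, 0.816 without those 2 mice, 0.866 early and 0.930 late). For H2-D1 the r with this sum was 0.0744 (rho = 0.0830, permutation p = 0.75, adjusted p = 0.95, 0.110 without those mice), 0.698 early and -0.128 late. Tap1, a peptide loading gene, also passed, with r = 0.572 (rho = 0.606, permutation adjusted p = 0.025, 0.402 without those mice, 0.490 early and 0.693 late). With the border macrophage sum, H2-Ab1 gave r = 0.830 (rho = 0.702, permutation adjusted p = 8.6e-05, 0.732 without the 2 farthest mice, 0.850 early and 0.845 late) and Cd74 r = 0.830 (rho = 0.517, permutation adjusted p = 0.0011, 0.518 without them, 0.791 early and 0.814 late).

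The microglial marker sum went with B2m and passed the threshold with no other member. B2m gave r = 0.558 with its log2 value (rho = 0.522, permutation p = 0.0074, adjusted p = 0.04 for r and 0.08 for rho, 0.577 without the 2 farthest mice), with 0.423 in the early and 0.242 in the late mice. The 15 markers summed to between 450.0 and 558.2 CPM in Late SAFit2 and between 477.5 and 519.2 CPM in Late Vehicle, and their log2 sum gave r = -0.216 with Cd74 (rho = -0.0220, permutation p = 0.36, adjusted p = 0.77, -0.213 without the 2 farthest mice, 0.269 early and 0.0103 late) and r = -0.109 with H2-Ab1 (rho = -0.0254, permutation p = 0.63, adjusted p = 0.91, -0.0714 without them, 0.112 early and 0.343 late). Of the dendritic cell and monocyte list 6 of 10 genes were in the table, with a sum from 14.6 to 26.8 CPM and with Itgax, Clec9a and Ccr2 at 0 reads in some mice, and Cd74 gave r = -0.0208 with it (rho = -0.0265, permutation p = 0.93, adjusted p = 0.98, -0.0838 without the 2 farthest mice, -0.274 early and -0.256 late). Flt3 carried most of that sum, with group means of 3.61 to 4.24 log2 CPM, where the other 5 genes reached 2.38 in any mouse at most, so the r mainly describes Flt3. Of the B cell list 5 of 8 genes were in the table, with sums from 74.2 to 129.7 CPM that rested on Ighm and Ebf1, while Cd79a, Cd79b and Cd22 were at 0 reads in some mice and at 14 reads at most. Of the T and NK cell list the table held 1 gene of 8, Trbc2, which stayed between 0 and 1.15 CPM. The endothelial list (10 of 10 genes) summed to 253.8 to 400.9 CPM and gave r = -0.361 with Cd74 (rho = -0.404, permutation p = 0.1, adjusted p = 0.36, -0.323 without the 2 farthest mice, 0.152 early and -0.470 late). The red cell list (4 of 5 genes) summed to 342.3 to 917 CPM. The part of border tissue in the class II values was not tested beyond these sums. These correlations with library and marker measures were added after the data were seen.

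**Figure D4:**
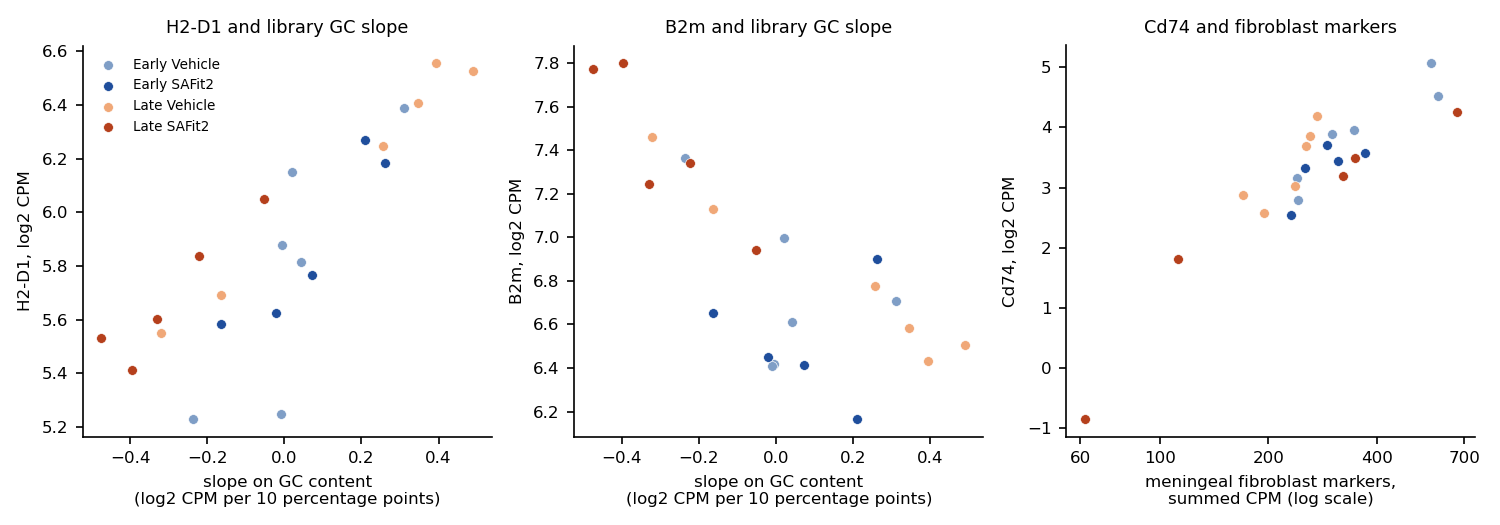
The left and middle panels set H2-D1 and B2m (log2 CPM, vertical axes) against the GC slope of each library (log2 CPM per 10 percentage points, horizontal axes), and the right panel sets Cd74 against the summed CPM of 8 meningeal fibroblast markers on a log axis, with 1 point per mouse. H2-D1 rises with the slope (r = 0.850), B2m falls with it (r = -0.762), and Cd74 rises with the marker sum (r = 0.908), from Late SAFit2 mouse 2 at 61.7 CPM to mouse 5 at 667 CPM.

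The genes whose pattern was most like that of 1 gene of each class were taken by Pearson's r over 22 mice with group means removed. For H2-D1 they were Atp5d (r = 0.957), Necap2 (0.947), Atp13a2 (0.935), Rgma (0.930) and Thop1 (0.930), whose r with group means left in ran from 0.890 to 0.948 and whose transcripts have GC contents of 56.8% to 62.5%. Among the members, Tap2 ranked 73 and H2-K1 868 of 16764 genes in likeness to H2-D1. For H2-Ab1 they were Lamb1 (0.922) and Col15a1 (0.902), both of the extracellular matrix, and Ahnak (0.917), Tbxa2r (0.908) and Filip1 (0.906), with r of 0.817 to 0.891 when group means were left in. Cd74, H2-Eb1 and H2-Aa ranked 15, 16 and 30 of 16764 in likeness to H2-Ab1. For Tap1 they were Fbxw9 (0.845), Amdhd2 (0.824), Mmp2 (0.817), Creb3l1 (0.803) and Marveld1 (0.800), with r of 0.587 to 0.782 when group means were left in.

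Other genes of the pathway were read from fixed lists. Of the other class I heavy chains and class I-like molecules, 18 were tested and 1 was called lower in Late SAFit2, where 12.1% of all genes tested were called. It was H2-T23, the nonclassical chain Qa-1 that presents leader peptides of other class I molecules, at 3.78 ± 0.12 log2 CPM (SD, n = 6) in Late Vehicle and 3.26 ± 0.33 (SD, n = 5) in Late SAFit2, a log2 fold change of -0.53 ± 0.17 (adjusted p = 0.0460). H2-T23 shares stretches of sequence with H2-D1, so reads between them may be split. Procr, the endothelial protein C receptor with a class I-like fold, gave 0.97 ± 0.34 (adjusted p = 0.0551), and H2-T9, 1 of several near-identical T region genes, gave -0.74 ± 0.46 (adjusted p = 0.256). The list's median was -0.20 beside -0.05 over all genes tested, with 14 of 18 values below 0.

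Of 16 genes of class I peptide processing and control, 1 was called higher and 1 lower in Late SAFit2, a share close to the 12.1% called among all genes. Canx, the calnexin chaperone that holds newly made heavy chains, was at 9.43 ± 0.33 log2 CPM (SD, n = 6) in Late Vehicle and 9.85 ± 0.10 (SD, n = 5) in Late SAFit2, a log2 fold change of 0.42 ± 0.13 (adjusted p = 0.0431). Psmb10, a catalytic subunit of the immunoproteasome, was at 4.99 ± 0.27 and 4.42 ± 0.40 log2 CPM in those groups, a log2 fold change of -0.57 ± 0.18 (adjusted p = 0.0438). Pdia3, a thiol oxidoreductase of the loading complex, gave 0.44 ± 0.16 (adjusted p = 0.0592). For the mean of both timings Psmb10 (-0.27, limma adjusted p = 0.369) and Psme1, a subunit of a proteasome activator (-0.21, adjusted p = 0.363), passed the unadjusted threshold, as did H2-T23 (-0.34, adjusted p = 0.325), beside 13.2% of all genes. Leaving out 1 mouse at a time, Psmb10 no longer passed in 15 of 22 fits and Psme1 in 11, and with the GC and length trend removed neither passed (-0.08 and -0.02).

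Of 19 genes of the class II list, 1 was called higher in Late SAFit2, beside 12.1% called among all genes. Marchf1, the ubiquitin ligase that takes class II molecules off the cell surface, was at 4.32 ± 0.32 log2 CPM (SD, n = 6) in Late Vehicle and 4.89 ± 0.19 (SD, n = 5) in Late SAFit2, a log2 fold change of 0.57 ± 0.14 (adjusted p = 0.0324). Ctss, the cathepsin that trims the invariant chain, gave 0.26 ± 0.11 (adjusted p = 0.109), and Nfyb, a subunit of the factor that binds CCAAT, gave 0.28 ± 0.14 (adjusted p = 0.161). H2-Ea, H2-Ea-ps and H2-Eb2 were on the list but were not found by symbol in the deposited table, so they were not analysed here.

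Of 29 interferon-stimulated genes tested, 4 were called higher and 0 lower in Late SAFit2, with 22 of 29 values above 0 and a median log2 fold change of 0.29. Over all 16765 genes 12.1% were called, 894 higher and 1127 lower, and 46.1% of values were above 0, with a median of -0.05. The share called in either direction was thus close to that of all genes, but the calls in this list were all higher. Among those called, the guanylate-binding protein Gbp2 gave 1.01 ± 0.32 (adjusted p = 0.0432), the GTPase Irgm1 0.44 ± 0.14 (adjusted p = 0.0430) and the RNA sensor Ddx58 0.50 ± 0.16 (adjusted p = 0.0464). At an unadjusted limma p under 0.05, 8 of the 29 were higher and 2 lower, against 15.6% and 19% of all genes. B2m correlated with the log2 sum of this list at r = 0.843 (rho = 0.788, permutation adjusted p = 8.6e-05), 0.693 early, 0.892 late and 0.788 without the 2 farthest mice, while H2-D1 gave -0.406 (rho = -0.467, permutation p = 0.058, adjusted p = 0.26, -0.295 without them, 0.199 early and -0.795 late). The relation of B2m to this sum was not tested apart from the GC slope, with which B2m gave r = -0.762 over 22 mice and -0.959 in the late mice. With the GC and length trend removed, the values were 0.94 for Gbp2, 0.33 for Irgm1 and 0.43 for Ddx58, and for the 4 genes called in the lists above they were -0.22 for H2-T23, 0.15 for Canx, -0.23 for Psmb10 and 0.24 for Marchf1. None of these 7 was then called. Leaving out 1 mouse at a time, the late call was lost in 7 of 22 fits for Marchf1, 10 for Irgm1, 11 for Canx, Psmb10 and Gbp2, and 14 for H2-T23 and Ddx58. For the mean of both timings Ifit2 (0.33, limma adjusted p = 0.356) was higher and Oas2 (-0.97, adjusted p = 0.345) lower at the unadjusted threshold, and Ifit2 no longer passed in 6 of 22 such fits.

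After early treatment 0 genes of these 4 lists were called, with 0% of all genes called. Between the Vehicle groups 5 were called, beside 9.11% of all genes. Nlrc5, the transactivator of class I genes, was at 0.34 ± 0.50 log2 CPM (SD, n = 6) in Early Vehicle and -1.73 ± 1.28 (SD, n = 6) in Late Vehicle, where some mice had 0 reads, a fitted difference of -2.08 ± 0.54 (adjusted p = 0.0160). Mx2 (-2.09 ± 0.50, adjusted p = 0.00834) and Stat2 (-0.47 ± 0.14, adjusted p = 0.0361) were also lower in Late Vehicle, and the chaperone Calr (0.47 ± 0.11, adjusted p = 0.00646) and the endosomal protease Lgmn (0.44 ± 0.11, adjusted p = 0.0120) were higher. The size of the 2 lowest values depended on the scale near 0 reads. Over the alternatives that kept all mice, Nlrc5 ran from -2.83 with limma voom to -0.47 with a pseudocount of 2 CPM, and Mx2 from -2.32 to -0.60 under the same settings, and both stayed called wherever they passed the filter on low values. The Stat2 call was lost in 8 of 22 fits that left out 1 mouse, with median centring and with quantile normalization, and the calls of Calr and Lgmn were lost with quantile normalization. The 3 class I members were not called in that comparison.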

How the data were processed

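Total RNA from lumbar (L4-L6) spinal cord, by the methods the dorsal quadrant on the injured side, was sequenced from directional libraries. Per the labels and methods, the authors trimmed reads with Trimmomatic, aligned them with HISAT2 to mm10, counted them per gene with featureCounts, scaled libraries by trimmed mean of M-values and deposited log2 CPM, with edgeR among the tools named. Tool versions are not given in the sources used here. The lowest value, -3.15, marks 0 reads. Reads worked back from the deposited log2 values were whole in 100.0% of cases (tolerance 0.02 reads). Depth was between 11352989 and 24433349 reads on genes, at which counting error alone would give the members SDs of 0.0327 to 0.225 log2.

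The deposited log2 CPM were tested with limma 3.58.1 in R 4.3.3 (1 mean per group over all 22 mice, variance trend on expression, genes with at least -1 log2 CPM in 5 libraries), with Benjamini-Hochberg adjustment over the 16765 genes left. A gene was called at an adjusted p under 0.05 and a change of at least 1.2-fold, and for the mean effect at an unadjusted p under 0.05. Single genes also had two-sided exact permutation tests, and correlations had permutation tests with 100000 resamples (Python 3.11.15, scipy 1.17.1). The resamples for correlations exchanged all 22 mice without regard to group or batch. Fits were tested on simulated data. GC content and length came from GENCODE M21, for 96.5% of genes.

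The 10 members, the gene lists and the tests were chosen with earlier results of these data known. The text names the members, list genes called in any comparison (to 3 per list by lowest late p where fewer were called) and the 5 genes most like H2-D1, H2-Ab1 and Tap1. A called list gene is not reported here. Alternatives were other filters, pseudocounts of 0.5 and 2 CPM, no variance trend, library quality weights, other scaling, the compared groups alone, a replicate block, removal of each library's loess trend on GC content and length, limma voom, and leaving out each mouse. Genes with a GC content fitted without correction, and the correlations with GC slope and marker sums, were added after seeing the data. Promoters came from RefSeq.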

Additional observations from a re-analysis of the deposited data

Results flagged for a closer look

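The difference between the late and the early SAFit2 effect on B2m stood out, at 0.84 on the log2 scale (SE 0.27). The late effect was 0.61 and the early effect -0.24, and the exact permutation p of the difference was 0.0155. The limma p adjusted over all genes was 0.120, so the difference did not pass the threshold used for calls. B2m was above its Vehicle mean in 5 of 5 Late SAFit2 mice and in 1 of 5 Early SAFit2 mice. Over the alternatives it kept its sign, from 0.33 with the GC and length trend removed to 0.998 with the replicate block, and without each mouse in turn it lay between 0.72 and 0.97. Timing and batch cannot be told apart for this difference. Among 40 sets of values, 1 for each gene in each group, 0 held a mouse far from the rest by Dixon's criterion, where chance alone would give about 2.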

How the results depend on the processing

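Of the log2 fold changes of members under the alternatives that kept all mice, 588 kept their direction and side of the threshold, 42 turned, 22 passed a threshold they had not passed and 8 no longer passed. Members called after late treatment, 1 in the report, came to 0 without a variance trend, with quantile normalization, with only the mice of the 2 groups, with limma voom, and with the GC and length trend removed with or without the block, and to 6 with library quality weights. Genes called among all in that comparison came to 62 without a trend, 6381 with weights, 1231 with quantile normalization, 0 with the 2 groups alone, 0 with the trend removed, 10 with the trend removed and the block, and 876 with voom, against 2021. Quality weights gave 1 member for late minus early, 7 for the mean effect and 2 between the Vehicle groups, and for the mean effect voom gave 2 and trend removal gave 0 with or without the block. Except as stated, the cause was not tested.

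The replicate numbers were shared but did not pair the mice: residual correlations of same-numbered mice ran from -0.236 to 0.317, above 0.1 in 2 of 10 pairs. With the replicate block, 5 members were called after late treatment (4219 genes in all), 1 for late minus early and 3 for the mean effect, and Tap1 turned to -0.11 after late treatment.

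Without 1 mouse in turn, members called ranged from 0 to 0 early, 0 to 5 late, 0 to 1 for late minus early, 1 to 3 for the mean effect and 0 to 0 between the Vehicle groups. The late count was 0 without Early Vehicle 2 or 6, Early SAFit2 4 or 5, Late Vehicle 1, 3, 4 or 5, or Late SAFit2 2, 3, 4 or 5. It was 2 without Early Vehicle 4 or 5 or Late SAFit2 1, and 5 without Late Vehicle 6, which also gave the 1 for late minus early. The mean effect gave 3 without Early Vehicle 4 or Late Vehicle 6, and 2 without Early Vehicle 5, Early SAFit2 2 or Late SAFit2 1, 3, 4 or 5. Over all genes, 1 was called after late treatment without Late Vehicle 1, 3, 4 or 5 or Late SAFit2 2 or 5, 8 without Late SAFit2 4, and 4975 without Late Vehicle 6. Ranges that crossed 0 were, early, -0.0099 to 0.22 for H2-D1, -0.27 to 0.0077 for Tap1, -0.072 to 0.10 for Tap2, -0.64 to 0.027 for H2-Ab1 and -0.51 to 0.059 for H2-Eb1. Late, they were -0.17 to 0.29 for Tap1, -0.36 to 0.50 for H2-Aa, -0.60 to 0.34 for H2-Ab1 and -0.47 to 0.49 for H2-Eb1. For late minus early they were -0.052 to 0.41 for Tap1, -0.32 to 0.62 for H2-Ab1, -0.28 to 0.69 for H2-Eb1 and -0.88 to 0.40 for Cd74. For the mean effect they were -0.15 to 0.086 for Tap1, -0.44 to 0.031 for H2-Ab1 and -0.34 to 0.15 for H2-Eb1. Between the Vehicle groups they were -0.0074 to 0.24 for H2-K1, -0.068 to 0.18 for B2m, -0.16 to 0.14 for Tap1 and -0.53 to 0.037 for H2-Eb1.

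Values also turned under other alternatives. Early, weights gave -0.13 for H2-D1, 0.060 for Tap1 and -0.073 for Tap2, and trend removal gave -0.051 for Tap2 (-0.057 with the block). Late, weights gave -0.31 and voom -0.11 for Tap1, voom gave -0.059 for H2-Aa, and pseudocounts of 0.5 and 2 CPM gave 0.0077 and 0.082 for H2-Eb1. A pseudocount of 2 CPM gave 0.032 for H2-Ab1, and median centring and quantile normalization gave 0.0040 and 0.062 for H2-Eb1. Trend removal gave 0.037 for Tap2, 0.069 for Tapbp (0.13 with the block), -0.0065 for H2-Aa, 0.22 for H2-Ab1 (0.29) and 0.087 for H2-Eb1 (0.048). For late minus early, it gave 0.033 for H2-K1, 0.088 for Tap2 (0.051) and 0.27 for Tapbp (0.35), weights gave -0.37 for Tap1, and voom gave -0.050 for Tap1, -0.0043 for H2-Ab1 and -0.026 for H2-Eb1. For the mean effect, Tap1 was 0.036 with quantile normalization and 0.14 with trend removal (0.073), and H2-Ab1 and Psme1 were 0.0096 and 0.018 with trend removal and the block. Between the Vehicle groups, B2m was -0.085 with weights and -0.045 with quantile normalization, and Tap1 was 0.0014 with a pseudocount of 2 CPM, 0.29 with weights, 0.051 with median centring, 0.12 with quantile normalization and 0.089 with voom. The r of H2-D1 with B2m was -0.41 without the 2 farthest mice, -0.17 in the early mice, -0.41 with median centring and 0.32 with the trend removed, that of H2-D1 with Cd74 was 0.71 in the early mice, and that of H2-D1 with Tap1 was -0.053 with the trend removed. Counting error was largest for H2-Ab1 and Tap1 among the members (SDs of 0.225 and 0.181 log2, against 0.99 and 0.55 over mice), and Cd74 rested on 6 reads and H2-Ab1 on 8 in Late SAFit2 mouse 2.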
